A study of Mus musculus with 4 samples.

Results

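The genes described here encode the subunits of the proteasome, its activators, its inhibitor and the chaperones that assemble it. They were taken as every row whose gene symbol starts with *Psm*, a letter from a to g and a number, which gave 49 genes of 15981 listed in at least 1 of the 4 tables. All 49 matched a RefSeq gene by identifier. One of them, *Psmc3ip*, fits the rule by name only, because it encodes a partner of meiotic recombinases and no proteasome subunit. RNA-Seq was done on Thy1.1+ Pmel-1 CD8+ T cells (C57BL/6 background), which carry a transgenic receptor for the melanoma antigen gp100. By the labels the cells spent 5 days in polarizing culture, which the methods split into priming under Tc1 or Tc9 conditions (rhIL-2 for Tc1, and IL-4, TGF-β and an antibody to IFN-γ for Tc9) and a final stretch in medium with rhIL-2 for both. The hosts were B6 mice of the Thy1.2+ type that had carried a B16 melanoma under the skin for 10 days and received the cells by vein. The methods give cyclophosphamide, peptide-pulsed dendritic cells and rhIL-2 as adjuvants to both groups, and the cells were sorted from the tumors 14 days after transfer. RNA of several mice was pooled into 2 libraries per group, so a library is a pool and not a mouse, and the age of the mice is not given in the sources used here. The tumor-bearing hosts kept T cells of their own, and the sort was on the transferred cells. In such bulk samples, fewer cells of a type and less RNA per cell cannot be told apart.

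Each table lists genes in the character order of their identifiers and reaches a different point in that order. The table of Tc1 replicate 1 covers 2 of the 49 genes, that of Tc9 replicate 1 covers 5, that of Tc1 replicate 2 covers 34, and that of Tc9 replicate 2 covers all 49. *Psmg2* and *Psme4* could therefore be tested over 4 libraries, and *Psmb8*, *Psmb9* and *Psmd7* over 3 libraries. A further 29 genes could be compared only between the replicate 2 libraries, with 1 library per group and no test. For the remaining 15 genes only a level in Tc9 cells is given. Library depth was 30822953 to 31927162 counts. All 8 T cell markers were present in both replicate 2 libraries, with a summed level of 1930 FPKM in Tc1 and 2103 FPKM in Tc9 cells, and 6 of them were higher and 2 (*Cd8a* and *Thy1*) lower in Tc9. Of the 5 tested over 4 libraries, *Cd3e* (log2 fold change 0.73, adjusted p = 0.0108 by edgeR) and *Cd3g* (log2 fold change 0.49, adjusted p = 0.00995 by edgeR) were called higher in Tc9, as were 17.4% of all genes tested. Over 3 libraries *Cd3g* had a log2 fold change of 0.40 and did not pass (adjusted p = 0.286 by edgeR). *Il9*, the cytokine that defines Tc9 cells, was at 3 counts in Tc1 replicate 2, against 2601 and 2667 counts in Tc9 cells. Of 7 melanoma markers, 3 were covered by both replicate 2 libraries, and their summed level was 0.57 FPKM in Tc1 and 0.97 FPKM in Tc9 cells. Of 10 myeloid and dendritic cell markers, 9 were covered there, with a summed level of 7.32 and 13.96 FPKM, most of it *Cd68*, and *Lyz2* and *C1qa* were at 0 in both. *Cd68* had 226 and 221 counts in the Tc1 and 358 and 439 counts in the Tc9 libraries and was called higher in Tc9 (log2 fold change 0.84, adjusted p = 0.00295 by edgeR). The 3 B cell markers, all covered, summed to 0.28 and 0.32 FPKM, and 4 of 5 fibroblast and endothelial markers to 4.24 and 4.38 FPKM. The markers missing from these sums were *Mlana*, *Tyrp1*, *Dct*, *Sox10*, *C1qc* and *Col3a1*. They were listed for no library, so they had no counts in Tc9 replicate 2. The part of other cells in the results below was not tested.

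The proteasome is the protease complex that degrades proteins tagged with ubiquitin. Its 20S core is a barrel of α and β rings, in which the β subunits encoded by *Psmb5*, *Psmb6* and *Psmb7* carry the catalytic sites. A 19S cap with a ring of ATPases recognizes, unfolds and feeds in the substrates. In cells exposed to interferon, and constitutively in lymphocytes, the catalytic subunits are replaced by *Psmb8*, *Psmb9* and *Psmb10*, which gives the immunoproteasome. PA28αβ, encoded by *Psme1* and *Psme2*, is an alternative, interferon-inducible activator of the core that is known for its role in making peptides for MHC class I.

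The levels in Tc9 replicate 2, the library that covers every gene, are FPKM values (fragments scaled by gene length and library size), so genes can be compared with each other. Of all 49 genes, *Psme1* had the highest level at 317.85 FPKM, followed by the structural β subunit gene *Psmb3* at 246.67 FPKM and *Psmb8* at 207.52 FPKM. The 14 constitutive core genes had a median of 118.78 FPKM, between 41.81 FPKM for *Psma3* and 246.67 FPKM for *Psmb3*. The deposited length of *Psma3* was 2374 bases, against 960 to 1255 bases for the other constitutive α ring genes, and FPKM is divided by this length. The 17 subunit genes of the 19S base and lid had a median of 86.05 FPKM, between 45.89 FPKM for *Psmd6*, a lid subunit, and 170.2 FPKM for *Psmd8*, another lid subunit. Chaperone genes lay lower. The 20S chaperones *Psmg1*, *Psmg4*, *Psmg2* and *Psmg3* had 38.96, 30.95, 24.84 and 18.14 FPKM, and the 19S chaperones *Psmd5*, *Psmd9* and *Psmd10* had 26.77, 13.42 and 11.26 FPKM. By their medians the order was core, cap and chaperones, and the ranges of core and cap overlapped.

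Of the subunits that replace others in special tissues, the germ cell subunit gene *Psma8* had 1 count and the thymus subunit gene *Psmb11* had 5 counts in Tc9 replicate 2. The count of *Psma8* lies under the 3 counts taken here as the smallest level this depth can show. The genes known from Tc9 replicate 2 alone include 7 of the 17 base and lid genes, which are *Psmd8* (170.2 FPKM), *Psmd11* (91.67 FPKM), *Psmc6* (69.19 FPKM), *Psmd12* (66.07 FPKM), *Psmd1* (63.29 FPKM), *Psmd14* (57.87 FPKM) and *Psmd6* (45.89 FPKM). *Psmc6* encodes an ATPase, *Psmd1* the largest scaffold of the base and *Psmd14* the deubiquitinase of the lid. Their levels in Tc1 cells were not analysed here.

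**Figure D1:**
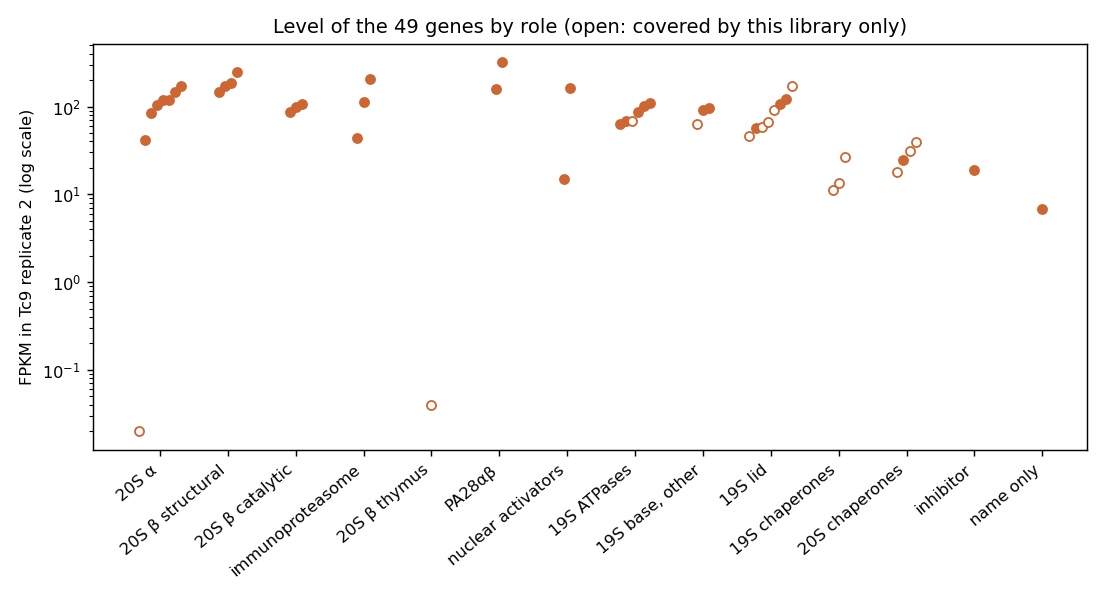
FPKM (log axis) of the 49 genes in Tc9 replicate 2, 1 point per gene, grouped on the horizontal axis by role, with open points for the 15 genes that only this table covers. *Psme1* is highest at 317.85 FPKM, and *Psma8* and *Psmb11* lie near the bottom with 1 and 5 counts.

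The next comparison asked whether proteasome genes differed between Tc1 and Tc9 cells. In the replicate 2 libraries, 32 of the 34 genes compared were lower in Tc9 than in Tc1 cells, whereas 47.6% of all 6225 genes compared were lower. All 14 constitutive core genes and all 10 genes of the 19S base and lid were among the lower ones. The *Psme1* and *Psmb10* values were the 2 that were not lower. Without *Psmc3ip*, 31 of 33 genes were lower and 13 were over 1.5-fold lower. The median log2 ratio of scaled counts (Tc9 replicate 2 over Tc1 replicate 2) was -0.54 over the 34 genes and 0.030 over all genes compared. In 14 of the 34 genes the count was over 1.5-fold lower in Tc9 and in none over 1.5-fold higher, against 12.8% of all genes lower and 21% higher by that much. Proteasome genes are abundant, and 32 of the 34 had a mean of at least 1000 counts. Of the 2977 genes with that many counts, 52.8% were lower, 10.1% were over 1.5-fold lower, and their median log2 ratio was -0.03. With library depth alone as the scale, 9 of the 34 genes were over 1.5-fold lower and 31 were lower, since *Psmf1* then lay just above 0 (0.026), as it did on the FPKM scales.

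No p-value is given for these 34 ratios as a group, because each cell type is represented by a single library. The spread between replicates can be stated for other genes. Between the 2 Tc9 libraries, 95% of 1263 genes with a mean of at least 1000 counts differed by at most 0.49 on the log2 scale, and between the 2 Tc1 libraries 95% of 637 such genes differed by at most 0.15. Of the 32 genes compared with that many counts, 17 lay beyond the wider of these spreads, all of them lower in Tc9, whereas 14.6% of the genes with at least 1000 counts lay below it and 15.4% above. The 5 members covered by both Tc9 libraries were all lower in replicate 2 than in replicate 1, with log2 values of replicate 2 over replicate 1 from -0.23 to -0.02. The other 29 genes rest on Tc9 replicate 2 alone, and what replicate 1 would give for them was not tested.

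**Figure D2:**
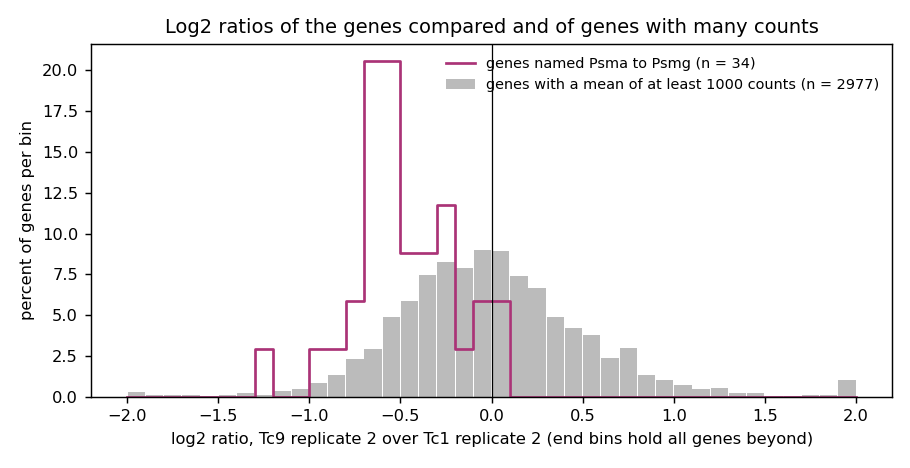
Percent of genes per bin of 0.1 (vertical axis) by log2 ratio of Tc9 replicate 2 over Tc1 replicate 2 (horizontal axis), for 2977 genes with a mean of at least 1000 counts (grey bars) and the 34 genes compared, *Psmc3ip* included (line), with all genes beyond 2 or -2 put into the end bins. The line is centered to the left of the bars and overlaps them, with a median of -0.54 against -0.03.

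The 7 genes compared of the α ring, which gates the entry to the core, were all lower in Tc9. Their median log2 ratio was -0.63. Of these, 5 were over 1.5-fold lower. *Psma3* (identifier 19167, chromosome 12, 70969283 to 70995877) had 5671 counts in Tc1 and 2880 counts in Tc9. This was the lowest ratio of a proteasome subunit gene, at -0.98 on the log2 scale (95% Wilson interval -1.04 to -0.91). The counts of *Psma3* are not whole numbers, as estimated counts are where reads are divided among features, so its values are less certain. *Psma6* followed with 5109 and 3109 counts (log2 ratio -0.72) and *Psma4* with 6883 and 4290 counts (log2 ratio -0.68). The smallest difference in the ring was that of *Psma2*, from 6380 to 4404 counts (log2 ratio -0.53). The Wilson intervals here and below cover counting error only and compare 2 libraries, not the conditions.

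In the β rings, all 3 catalytic and all 4 structural genes were lower in Tc9, with median log2 ratios of -0.63 and -0.49. *Psmb7* (identifier 19177), which encodes the trypsin-like site, had 4957 counts in Tc1 and 2697 counts in Tc9 (log2 ratio -0.88, 95% Wilson interval -0.94 to -0.81). *Psmb6*, which encodes the caspase-like site, had 3667 and 2362 counts (log2 ratio -0.63). *Psmb5*, which encodes the chymotrypsin-like site and is the target of bortezomib, had 3091 and 2252 counts (log2 ratio -0.46). Among the 4 structural genes, the log2 ratio ran from -0.59 for *Psmb2* through -0.56 for *Psmb3* and -0.42 for *Psmb4* to -0.28 for *Psmb1*, which went from 6265 to 5171 counts.

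In the 19S cap, the 5 ATPase genes compared had a median log2 ratio of -0.62. *Psmc5* had 3923 counts in Tc1 and 2348 counts in Tc9 (log2 ratio -0.74), *Psmc2* had 5397 and 3452 counts (log2 ratio -0.64), and *Psmc4* differed least with 5613 and 4341 counts (log2 ratio -0.37). Both non-ATPase base genes compared had ratios closer to 0. The log2 ratio was -0.29 for *Psmd4*, a ubiquitin receptor, and -0.26 for *Psmd2*, a scaffold that docks ubiquitin carriers. Of the lid genes, *Psmd13* had a log2 ratio of -0.53, *Psmd7* of -0.48 and *Psmd3* of -0.14, the last with 7364 and 6673 counts. Of the 10 cap genes, 3 were over 1.5-fold lower, and all 3 encode ATPases (*Psmc5*, *Psmc2* and *Psmc1*).

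**Figure D3:**
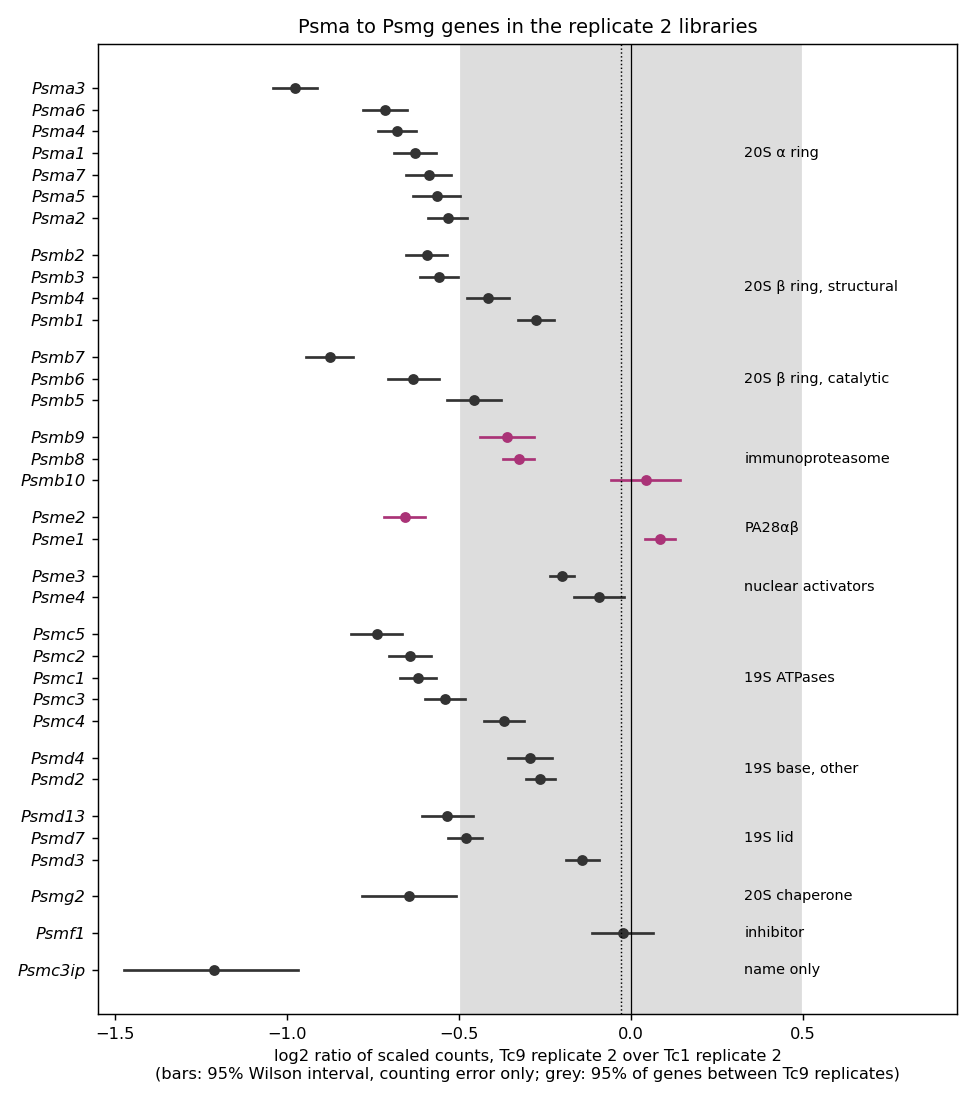
Log2 ratio of scaled counts of Tc9 replicate 2 over Tc1 replicate 2 (horizontal axis) for 34 genes grouped by role, with 95% Wilson intervals for counting error. The grey band is the 0.49 within which 95% of genes with at least 1000 counts stayed between the Tc9 replicates, the dotted line is the median of genes with that many counts, and purple marks the 5 interferon-inducible genes. *Psmb10* and *Psme1* lie to the right of 0.

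The nuclear activators and the inhibitor differed by less than 1.5-fold. *Psme3*, which encodes the nuclear activator PA28γ and had the most counts of all 49 genes, went from 14152 counts in Tc1 to 12296 counts in Tc9 (log2 ratio -0.20). *Psmf1*, which encodes the inhibitor PI31, had 2032 and 1997 counts (log2 ratio -0.02, 95% Wilson interval -0.11 to 0.065). The lowest ratio of the 34 was that of *Psmc3ip*, the gene that fits by name only, with 413 and 177 counts (log2 ratio -1.21).

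Of the 5 interferon-inducible genes, 3 were lower and 2 were not, with a median log2 ratio of -0.33. Among the other members without *Psmc3ip*, all 28 were lower, with a median of -0.55. *Psmb8* (identifier 16913, chromosome 17, 34198195 to 34201454) reached 8698 counts in Tc1 replicate 2, against 7036 and 6931 counts in Tc9 cells. *Psmb9* (identifier 16912, chromosome 17, 34182030 to 34187330) reached 3005 counts in Tc1 replicate 2, against 2742 and 2338 counts in Tc9 cells. For both genes the Tc9 libraries lay below the single Tc1 library, as for 37.8% of all genes tested over these 3 libraries, and neither gene passed the test given below. *Psmb10* (identifier 19171, chromosome 8, 105935728 to 105938392), which replaces the trypsin-like subunit, had 1567 counts in Tc1 and 1614 counts in Tc9 replicate 2 (log2 ratio 0.043, 95% Wilson interval -0.057 to 0.144). A difference in *Psmb10* was not detectable at this depth. On the authors' FPKM scale, *Psmb10* had 41.5 and 43.52 FPKM.

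The catalytic pairs can be compared within a library, where scaling between libraries plays no part. *Psmb8* made up 65.4% of the summed FPKM of *Psmb8* and its constitutive counterpart *Psmb5* in Tc1 replicate 2 and 67.5% in Tc9 replicate 2. *Psmb9* made up 52.5% of its sum with *Psmb6* in Tc1 and 57.1% in Tc9. *Psmb10* made up 18.0% of its sum with *Psmb7* in Tc1 and 29.2% in Tc9. In all 3 pairs the share of the immunoproteasome gene was higher in the Tc9 library, and for *Psmb10* most of the difference lay in *Psmb7*, at 188.75 and 105.47 FPKM. The ratio within the pair was higher in Tc9 by 1.10-fold for *Psmb8* (log2 change 0.14, 95% counting interval 0.045 to 0.23), 1.20-fold for *Psmb9* (log2 change 0.27, interval 0.16 to 0.37) and 1.88-fold for *Psmb10* (log2 change 0.91, interval 0.79 to 1.03). With 1 library per group these are differences between 2 libraries. The ratio of *Psmb8* to *Psmb9*, which 3 libraries cover, was 1.77 in Tc1 replicate 2 and 1.58 and 1.82 in the Tc9 libraries, so the Tc1 value lay between the 2 Tc9 values.

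The 2 genes of PA28αβ, whose products form mixed rings, had ratios of opposite sign. *Psme1* (identifier 19186, chromosome 14, 55578494 to 55581527) had 7744 counts in Tc1 and 8206 counts in Tc9 replicate 2 (log2 ratio 0.085, 95% Wilson interval 0.040 to 0.129). The log2 ratio was 0.134 with library depth alone as the scale and 0.054 with TMM factors of the replicate 2 range. *Psme2* (identifier 19188, chromosome 14, 55587440 to 55591101) had 5894 counts in Tc1 and 3731 counts in Tc9 (log2 ratio -0.66, 95% Wilson interval -0.72 to -0.60). *Psme1* over *Psme2* was 1.20 in FPKM in Tc1 and 2.01 in Tc9 cells, a 1.67-fold difference. The counts of *Psme2* are not whole and its retrocopy *Psme2b* is listed in no table used here, so a share of its reads assigned elsewhere cannot be seen. *Psmb8*, *Psmb10*, *Psma3* and *Psmd11* are the other members with counts that are not whole.

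**Figure D4:**
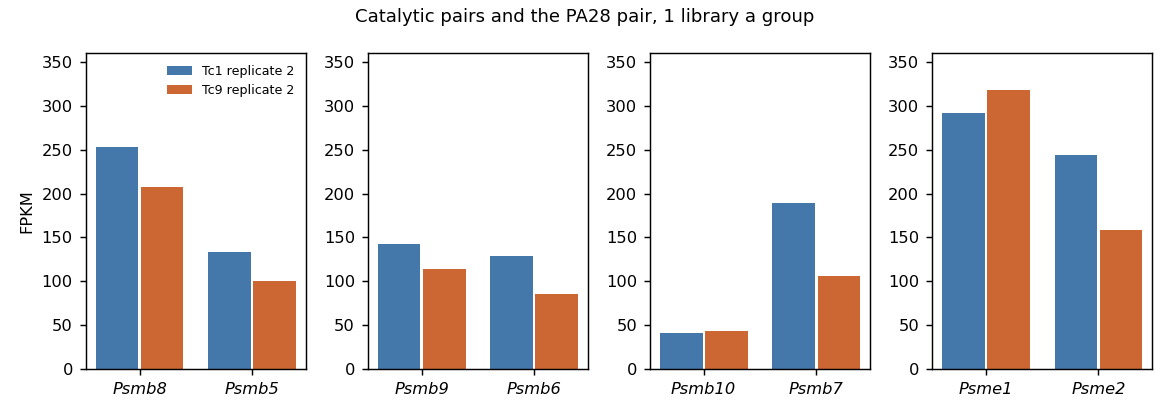
FPKM (vertical axis, from 0) in Tc1 replicate 2 (blue) and Tc9 replicate 2 (orange) of each immunoproteasome gene beside its constitutive counterpart, and of *Psme1* beside *Psme2*, 1 library per bar and no error bar. *Psmb7* stands at 188.75 and 105.47 FPKM beside a *Psmb10* of 41.5 and 43.52 FPKM.

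The windows of 250 bases before to 50 bases after the start of the 5 interferon-inducible genes are shown because these genes are known targets of interferon signaling and had ratios of both signs. Whether the 5 ratios differ from each other was not tested. They come from RefSeq (GRCm38.p6, the assembly that mm10 names), read 5′ to 3′ on the strand of the gene. They are chr17:34197945-34198244 (+) for *Psmb8*, chr17:34187281-34187580 (-) for *Psmb9*, chr8:105938343-105938642 (-) for *Psmb10*, chr14:55578244-55578543 (+) for *Psme1* and chr14:55591052-55591351 (-) for *Psme2*, the upstream one of its 2 starts. Capitals mark matches on either strand to the core of the interferon-stimulated response element (GAAA, 2 bases of any kind, GAAA) or to a STAT site (TTCNNNGAA).
Psmb8: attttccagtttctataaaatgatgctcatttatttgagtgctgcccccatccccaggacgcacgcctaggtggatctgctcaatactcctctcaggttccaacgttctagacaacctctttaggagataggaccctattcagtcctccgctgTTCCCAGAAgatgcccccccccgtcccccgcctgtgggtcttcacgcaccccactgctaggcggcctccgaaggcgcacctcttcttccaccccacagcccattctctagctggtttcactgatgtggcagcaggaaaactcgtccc
Psmb9: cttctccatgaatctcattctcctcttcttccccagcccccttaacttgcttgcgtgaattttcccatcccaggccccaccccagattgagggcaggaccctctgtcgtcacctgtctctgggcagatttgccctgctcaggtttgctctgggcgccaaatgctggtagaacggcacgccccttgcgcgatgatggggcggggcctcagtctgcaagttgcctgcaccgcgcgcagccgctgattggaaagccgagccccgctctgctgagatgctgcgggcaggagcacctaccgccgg
Psmb10: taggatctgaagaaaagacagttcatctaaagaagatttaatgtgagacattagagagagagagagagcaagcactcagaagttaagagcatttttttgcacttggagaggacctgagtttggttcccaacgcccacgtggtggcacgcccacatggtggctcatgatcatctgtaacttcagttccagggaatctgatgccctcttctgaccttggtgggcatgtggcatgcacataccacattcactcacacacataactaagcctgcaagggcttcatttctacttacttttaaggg
Psme1: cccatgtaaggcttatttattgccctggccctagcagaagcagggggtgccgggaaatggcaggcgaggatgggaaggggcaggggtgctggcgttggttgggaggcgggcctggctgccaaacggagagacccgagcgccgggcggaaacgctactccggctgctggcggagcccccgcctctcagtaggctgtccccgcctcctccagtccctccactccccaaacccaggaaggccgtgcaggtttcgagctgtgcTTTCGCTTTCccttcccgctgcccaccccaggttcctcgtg
Psme2: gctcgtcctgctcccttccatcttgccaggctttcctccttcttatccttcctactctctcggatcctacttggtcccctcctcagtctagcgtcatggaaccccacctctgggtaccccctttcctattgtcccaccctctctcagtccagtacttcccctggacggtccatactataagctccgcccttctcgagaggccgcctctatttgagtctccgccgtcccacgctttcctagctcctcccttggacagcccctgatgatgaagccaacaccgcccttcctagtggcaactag
*Psme1* holds TTTCGCTTTC from position 10 after its start, which is the response element core read on the opposite strand. *Psmb8* holds the STAT site TTCCCAGAA at 97 bases before its start. The windows of *Psmb9*, *Psmb10* and *Psme2* hold neither run of letters. The response element core occurs in 5 of the 41 member genes with a window (*Psmb3*, *Psmd4*, *Psmd9*, *Psme1* and *Psmg4*) and in 3.44% of 32851 windows of all genes. Of these 5, *Psme1* had a log2 ratio of 0.085, *Psmb3* of -0.56 and *Psmd4* of -0.29, and *Psmd9* and *Psmg4* could not be compared. Whether the core goes with the ratio was not tested. The STAT site occurs in 3 of the 41 (*Psmb8*, *Psmd2* and *Psmg1*) and in 8.30% of all windows. The element TGACTCAGC, of the kind bound by NFE2L1, the factor that raises proteasome genes when the proteasome is inhibited, was added after the values were seen. It occurs in none of the 44 member windows and in 0.454% of all windows.

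Only *Psmg2* and *Psme4* could be tested over all 4 libraries with edgeR's quasi-likelihood test across 1284 genes. *Psmg2* (identifier 107047), which encodes a chaperone that pairs with the *Psmg1* product to build the α ring, reached 1113 and 1103 counts in Tc1 cells, against 813 and 704 counts in Tc9 cells. Both Tc9 libraries lay below both Tc1 libraries, as they did for 35.7% of the genes tested, and the groups did not overlap in either direction for 70.4%. Scaled by library size, this was 35.3 and 35.1 CPM in Tc1 and 25.9 and 22.4 CPM in Tc9 cells (CPM, counts scaled to a common library size). *Psmg2* fell in Tc9 cells with a log2 fold change of -0.54 (standard error 0.12, adjusted p = 0.00793, edgeR). Of the 1284 genes tested, 16.7% were called lower in the same way. Without Tc1 replicate 1 or Tc1 replicate 2 *Psmg2* did not pass, with log2 fold changes of -0.54 in both. Without Tc9 replicate 1 the log2 fold change was -0.65, and without Tc9 replicate 2 it was -0.44. Each of these fits has 1 library in a group and takes its spread from the other group.

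*Psme4* (identifier 103554, chromosome 11, 30771775 to 30881150), which encodes the nuclear activator PA200, had 3400 and 3128 counts in the Tc1 and 3442 and 2931 counts in the Tc9 libraries, so the groups overlapped. Its log2 fold change of -0.03 (standard error 0.12) did not pass the threshold (adjusted p = 0.860 by edgeR). Without Tc9 replicate 1 the log2 fold change was -0.15, and without Tc9 replicate 2 it was 0.085. Each of these fits has a single Tc9 library and takes its spread from the Tc1 libraries, so only the size is given.

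Over Tc1 replicate 2 and both Tc9 libraries, edgeR tested 2622 genes, with the single Tc1 library assumed to vary like the Tc9 libraries. None of the 5 members in this range passed the threshold, while 7.93% of the genes tested were called lower and 20.4% in either direction. In 4 of the 5 (*Psmd7*, *Psmg2*, *Psmb8* and *Psmb9*) both Tc9 libraries lay below the Tc1 library, as for 37.8% of the genes tested, and for 81.8% the groups did not overlap in either direction. *Psmd7* (identifier 17463, chromosome 8, 107580380 to 107588482), a lid subunit that pairs with the deubiquitinase, reached 7806 counts in Tc1 replicate 2, against 5698 and 5587 counts in Tc9 cells. Its log2 fold change was -0.50 (standard error 0.25, adjusted p = 0.159, edgeR). The log2 fold change was -0.34 for *Psmb8* (standard error 0.25, adjusted p = 0.361, edgeR) and -0.27 for *Psmb9* (standard error 0.25, adjusted p = 0.502, edgeR). For *Psmb9* it was -0.40 without Tc9 replicate 1 and -0.15 without Tc9 replicate 2, with 1 library per group and no test. *Psmg2* had -0.57 (standard error 0.24, adjusted p = 0.0742, edgeR) in this smaller set of libraries. The Tc9 replicates differed by a log2 value of -0.021 for *Psmb8* and -0.028 for *Psmd7*, less than the difference of the Tc9 mean to the Tc1 library. For *Psmb9* they differed by -0.23, about as much as the Tc9 mean differed from the Tc1 library. The *Psmb9* value of Tc9 replicate 1 differed from the Tc1 library by -0.13 and that of Tc9 replicate 2 by -0.36.

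**Figure D5:**
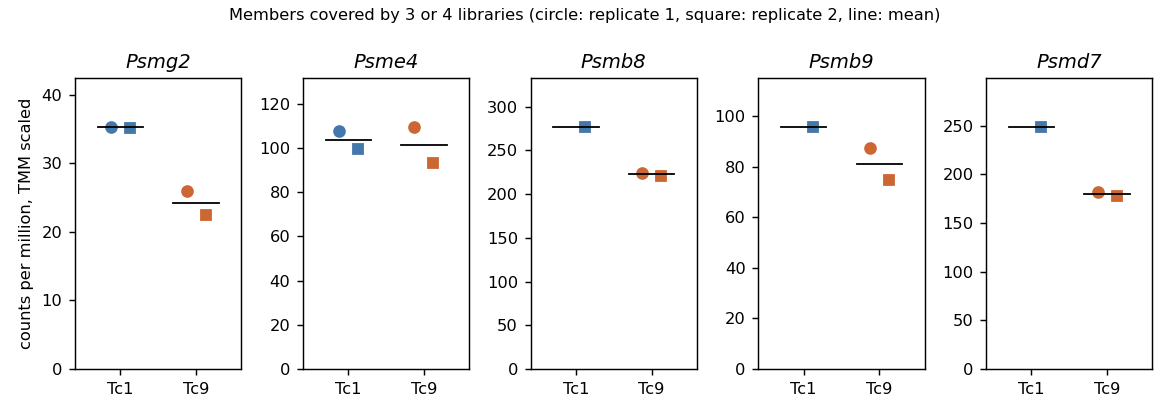
CPM scaled by TMM factors (vertical axes, from 0) of the 5 genes covered by 3 or 4 libraries, with circles for replicate 1, squares for replicate 2 and a line at the mean. In *Psmg2* the Tc9 libraries at 25.9 and 22.4 lie below the Tc1 libraries at 35.3 and 35.1, and in *Psme4* the groups overlap.

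Other genes of the ubiquitin–proteasome route were read from a list of 29 names, 12 of which both replicate 2 libraries cover. Of these, 10 were lower in Tc9, against 47.6% of all genes compared, the median log2 ratio was -0.15, against 0.030, and none was over 1.5-fold lower or higher. *AI314180*, a scaffold that binds the proteasome, had 5301 counts in Tc1 and 3866 counts in Tc9 (log2 ratio -0.45), and *Sem1*, a small lid subunit whose symbol does not start with *Psm*, had 2019 and 1530 counts (log2 ratio -0.40). *Nfe2l1* had 5817 and 5195 counts (log2 ratio -0.16). Among the genes that were higher, *Uba1*, the main ubiquitin-activating enzyme, had 24855 and 33239 counts (log2 ratio 0.42). Only *Ube3c*, a ligase of the proteasome, could be tested over 4 libraries (log2 fold change 0.034 ± 0.12 as standard error, edgeR adjusted p = 0.843). In Tc9 replicate 2 alone, *Pomp*, which encodes the maturation factor of the core, had 170.84 FPKM and *Adrm1*, a ubiquitin receptor of the cap, had 111.98 FPKM.

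Of 15 genes of the interferon and peptide route, 13 were covered by the replicate 2 libraries, 5 lower and 8 higher in Tc9. Their median log2 ratio was 0.41, beside 0.030 over all genes compared. Of the 9 tested over 3 libraries, 3 were called higher and 2 lower in Tc9 by edgeR, which called 12.5% of all genes tested higher, 7.93% lower and 20.4% in either direction. With no filter on low counts edgeR called no gene over these libraries, these 5 included. Their log2 fold changes there were -1.67 for *Ifng*, 1.59 for *Ifngr2*, 0.93 for *Jak2*, 0.70 for *Irf1* and -0.89 for *Irf8*. DESeq2 gave log2 fold changes of -1.69, 1.58, 0.92, 0.69 and -0.91 in the same order. *Ifng*, the main cytokine of Tc1 cells, stood at 15303 counts in Tc1 replicate 2, against 5097 and 4700 counts in Tc9 cells (log2 fold change -1.67 ± 0.25 as standard error, edgeR adjusted p = 3.51e-10). *Ifngr2*, a chain of its receptor, stood at 393 counts, against 1309 and 1104 counts (log2 fold change 1.59 ± 0.27 as standard error, edgeR adjusted p = 6.11e-08). *Irf1*, a transcription factor known to act on *Psmb9*, was called higher with 2590 counts, against 4398 and 4184 counts (log2 fold change 0.70 ± 0.27 as standard error, edgeR adjusted p = 0.0424), but its adjusted p was 0.0975 with the scaling factors of the 4-library range in edgeR, at a log2 fold change of 0.73. With the same factors *Jak2* (called higher, log2 fold change 0.93, adjusted p = 0.0043) and *Irf8* (called lower, log2 fold change -0.89, adjusted p = 0.00238) had adjusted p-values of 0.0748 and 0.0567 in edgeR, at log2 fold changes of 0.96 and -0.86.

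*Psmb8* and *Psmb9* lie within the MHC region beside the genes of the peptide transporter. *Tap1* (chromosome 17, 34187556 to 34197225) lies between them, with 225 bases between its start and that of *Psmb9*, which is read from the other strand. *Tap1* had 10360 counts in Tc1 and 14424 counts in Tc9 replicate 2 (log2 ratio 0.48, 95% Wilson interval 0.44 to 0.51), while *Psmb9* had a log2 ratio of -0.36 (95% Wilson interval -0.44 to -0.28) between the same libraries. *Tap2*, next to *Psmb8*, had 4794 and 4575 counts (log2 ratio -0.07), and *Tapbp*, which encodes tapasin, had 6710 and 8934 counts (log2 ratio 0.41). The neighboring genes of this cluster therefore had ratios of both signs between these libraries.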

How the data were processed

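RNA of tumor-infiltrating Tc1 and Tc9 cells was pooled into 2 libraries per group. The authors deposited, per gene, an expected count (reads estimated to belong to the gene, not normalized), an FPKM value scaled by gene length and library size, and a length in bases. The submitters' processing notes name mm10, and the aligner, the counting program and the use of strand are not given in the sources used here. Genes not listed within the range of a table were taken as 0 counts, and 1 incomplete last row was dropped. The tables list 1535, 7408, 3152 and 15442 genes (Tc1 replicates 1 and 2, Tc9 replicates 1 and 2), so the sum of a shorter table is not its depth. Depth was taken as the sum for the longest table (Tc9 replicate 2) and, for the others, from count over FPKM relative to it at genes of the same length and 500 or more counts in both, which gave 31834276, 31927162, 31105615 and 30822953 counts. At these depths 3 counts, taken as the floor, are 0.0940 to 0.0973 CPM. Without molecular identifiers, reads may stem from the same molecule, so intervals and floors hold counting error alone.

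Rounded expected counts were tested with edgeR 4.0.16 in R 4.3.3 (quasi-likelihood, two-sided, TMM, filterByExpr at a minimum count of 10, Benjamini-Hochberg over all genes tested, threshold 0.05) on the 1681 genes that 4 tables reach and the 3467 that 3 tables reach. Standard errors are the log2 fold change over the root of F. The 3-library test assumes that the lone Tc1 library varies like the Tc9 libraries. Ratios between the replicate 2 libraries used the TMM factors of the 4-library range, a prior count of 2 and genes with at least 10 counts in 1 library. Nothing at hand says that the pools are independent, so p-values measure the spread between these libraries, which may be technical. The scripts were tested on simulated data.

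Named are all genes that the rule takes; partner and marker genes come from lists written by hand. Values of some listed partner genes are not reported here. The gene group, the lists and the motifs were chosen with earlier results of these data known. Alternatives were DESeq2 1.42.0, no filter, limma 3.58.1 on log2(FPKM) with pseudocounts of 1 and 0.1, a replicate block, other scalings and leaving out each library.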

Additional observations from a re-analysis of the deposited data

How the results depend on the processing

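Precision is limited by the number of libraries: all 34 ratios compare 1 library per group, and 29 of these genes are compared in no other library. A call over 3 libraries assumes that the Tc1 library varies like the Tc9 libraries. Of the main results recomputed with another choice, 68 stayed the same, 19 moved, 9 changed sign, 2 no longer passed and 1 newly passed. The same means the same call, a value within the error or, for a count of genes, a count within 1.5-fold of the main one. Some could hardly differ. The member counts over all listed genes use the main ratios, and averaging in Tc9 replicate 1 leaves 29 of the 34 ratios unchanged. The cause was not tested. For single ratios of the replicate 2 libraries, 126 values stayed within the counting interval, among them 3 of *Psmf1* that lay above 0 instead of below it, 14 moved further, and 1 value of *Psme4* changed sign.

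Over 4 libraries, 224 genes were higher and 214 lower. With no filter 139 were lower, and with a library left out 99 to 424 were higher and 74 to 430 lower. The low counts came without Tc1 replicate 1 (120 higher, 81 lower) or 2 (99 and 74), and the high counts without Tc9 replicate 1 (424 and 430) or 2 (372 and 372). With the replicate block 231 were higher and 213 lower, and 406 genes were called in both fits. There the log2 fold change was -0.55 for *Psmg2* and -0.03 for *Psme4*, and neither call changed. The deviations of libraries with the same number had a correlation of -0.064 over 1284 genes, and nothing at hand says that they share mice. Leaving out a library, *Psmg2* lay between -0.65 and -0.44, and *Psme4* between -0.15 and 0.085. *Psme4* was 0.0047 on log2(FPKM + 1) and 0.0049 on log2(FPKM + 0.1).

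Over 3 libraries, 327 genes were higher and 208 lower. DESeq2 gave 208 and 117, limma on log2(FPKM + 1) 251 and 112, limma on log2(FPKM + 0.1) 197 and 78, and the TMM factors of the 4-library range, added after seeing the data, 197 and 84. With no filter edgeR called 0 in both directions, with 359 higher and 252 lower at an unadjusted p under 0.05. *Psme4* was 0.00024 with no filter, 0.065 and 0.069 on the FPKM scales, 0.027 with the 4-library factors and between -0.13 and 0.12 leaving out a Tc9 library.

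Between the replicate 2 libraries, 9 genes instead of 14 were over 1.5-fold lower with depth alone as the scale, and *Psme4* turned to 0.023 with Tc9 replicate 1 averaged in. With depth alone the log2 ratio was 0.093 instead of 0.043 for *Psmb10* and -0.091 instead of -0.141 for *Psmd3*.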
